A study of Mus musculus with 16 samples.

Results

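Mitochondrial DNA (mtDNA) is copied, transcribed and translated by proteins that are encoded in the nucleus. Here 35 such genes were followed in mouse heart RNA: factors for upkeep of the mtDNA, its transcription, the stability of its RNAs, the assembly of the mitochondrial ribosome and translation. They were chosen by symbol from the deposited count table. Each symbol stood on 1 row, so that 35 of the 36499 genes in the table were taken, and all 35 passed the filter on low counts that left 15255 genes for testing.

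The study compared cardiac tissue of mice on normal chow in 4 groups of 4 libraries: wild type, Fgf21 knockout (Fgf21 KO), Clpp knockout (Clpp KO) and the double knockout of both genes. CLPP forms the cutting chamber of the mitochondrial ClpXP protease. FGF21 is a circulating factor known to rise under mitochondrial stress. Floxed alleles were deleted in the whole body with a Cre driven by the β-actin promoter, per the labels, so the deletion is not confined to cardiomyocytes. The labels describe the deletion of Clpp and of both genes together, and do not describe the cross behind the Fgf21 KO. Age and sex are not given in the labels used here. Whether each library is a different mouse is not stated; the p-values below rest on the variation among libraries, part of which may be technical. In bulk tissue, fewer cells of a type and less RNA per cell cannot be told apart.

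Mammalian mtDNA carries genes for subunits of the respiratory chain, for rRNAs and for tRNAs, and it lies in nucleoids packed by TFAM. POLRMT transcribes it with TFAM and TFB2M, and POLG with its accessory subunit POLG2 replicates it. The long transcripts are cut, stabilised by LRPPRC with SLIRP, degraded by PNPT1 with the helicase SUPV3L1, and translated on a ribosome made of mitochondrial rRNA and imported proteins. In the heart, loss of several of these factors is known to cause cardiomyopathy. ERAL1, which chaperones the rRNA of the small subunit, and NOA1, a GTPase of ribosome assembly, are known as proteins that the CLPP protease removes.

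Several promoters of this group are known to bind the nuclear respiratory factors NRF1 and NRF2, the latter also called GABP, an ETS-family factor. Promoter sequences from RefSeq on GRCm38.p6 were found for 31 of the 35 genes, in 33 windows; Top1mt, Mterf3, Noa1 and Mtif3 were not matched. The GABP core CCGGAAG, searched on both strands of the 250 bases before the start, was present in 11 of the 33 windows, which is 33.3%, against 6.91% of all 32851 windows. All windows were not limited to genes tested in these hearts, whereas the 35 genes all passed that filter, so the sets are unlike. The 11 genes were Polg, Polg2, Ssbp1, Tfam, Polrmt, Tefm, Slirp, Fastk, Fastkd5, Dhx30 and Mtif2. The following stretches show the match in the genes of mtDNA replication and transcription. Capitals mark the core, which reads CTTCCGG where it lies on the other strand, and positions are counted from the RefSeq start. The GENCODE M21 models of Polg, Ssbp1, Tfam and Tefm start further upstream, so that these stretches lie inside them.
Polg, chr7:79466293-79466322, minus strand, bases -49 to -20: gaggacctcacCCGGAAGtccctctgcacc
Polg2, chr11:106779548-106779577, minus strand, bases -40 to -11: cgggtgacgctCTTCCGGgggcgtggtcta
Ssbp1, chr6:40471410-40471439, plus strand, bases -58 to -29: ggctccgtgcgCCGGAAGcgagccgctggc
Tfam, chr10:71238073-71238102, minus strand, bases -58 to -29: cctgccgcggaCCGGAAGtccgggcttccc
Polrmt, chr10:79746606-79746635, minus strand, bases -54 to -25: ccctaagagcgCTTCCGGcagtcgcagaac
Tefm, chr11:80142144-80142173, minus strand, bases -20 to 9: agcacacgaaaCCGGAAGttgaggaggaac

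The NRF1 letters, GCGCA and GCGC with 1 base between them, were found in 2 windows, those of Fastkd3 and Gfm2 (3.74% of all windows held them). The interferon response element, GAAA and GAAA with 2 bases between, was found in 1, that of Fastkd1 (2.98% of all). The stress element TGATGNAA, bound by ATF4, was found in 1, that of Fastkd2 (3.45% of all). Mterf4 and Pnpt1 were the only members that the edgeR model of all 16 libraries with TMM called in any comparison below. They held no exact match to the 4 motifs in the searched window, and near matches were not counted. In Pnpt1, GAAA and GAAA lie with 1 base between them. The upstream sequences of these 2 genes, from base -250 to base -51, are shown because they were the members called.
Pnpt1, chr11:29130494-29130693, plus strand: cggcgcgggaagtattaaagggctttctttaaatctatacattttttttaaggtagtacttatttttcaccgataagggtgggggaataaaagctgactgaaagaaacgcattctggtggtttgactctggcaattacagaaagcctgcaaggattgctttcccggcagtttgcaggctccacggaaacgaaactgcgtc
Mterf4, chr1:93305930-93306129, minus strand: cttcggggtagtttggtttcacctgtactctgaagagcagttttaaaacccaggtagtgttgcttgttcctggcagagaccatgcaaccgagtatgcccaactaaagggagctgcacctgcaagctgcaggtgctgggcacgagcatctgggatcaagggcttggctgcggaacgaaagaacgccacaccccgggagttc

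The libraries held between 36260545 and 51820727 counts. The targeted genes followed the labels: Clpp had 1435 to 2636 counts in the 8 libraries with the gene and 267 to 355 in the 8 without it. Fgf21 had 0 counts in the 8 libraries that lack it, 0 to 5 in wild type and 6 to 28 in Clpp KO. Levels below are CPM, that is, counts divided by the library's total in units of 1e6 counts, scaled by the trimmed mean of M values (TMM). Wild-type replicates 2 and 4 stood apart from the other libraries. The summed level of 5 atrial cardiomyocyte markers was 9881 and 6285 CPM in these 2 libraries against 79.1 and 73.0 in wild-type replicates 1 and 3. It was 330.1 to 2713 in Fgf21 KO, 183 to 3350 in Clpp KO and 154 to 1341 in the double knockout. No library had Myl7 or Nppa, which are 2 of the 5, at 0. Low sums were mostly Nppa, at 243.9 of 245.5 in double-knockout replicate 3, where Myl7 was 0.37. Myl7 was 1.21 and 1.16 in wild-type replicates 1 and 3, and 1729 and 1338 in replicates 2 and 4. Low sums therefore do not rank libraries by atrial tissue. Ucp1, which defines brown fat, was 2.05 and 22.3 in replicates 2 and 4, at most 2.36 elsewhere and 0 in the double knockout. Replicate 2 thus lay below Clpp KO replicate 1 (2.36). The summed level of 5 brown adipocyte markers, Ucp1 among them, did not set the 2 libraries apart. It was 344.5 and 516.4 in them and 268.3 to 619.9 over all 16 libraries. For 4 white adipocyte markers the sum was 37.9 and 120.8 in these 2 and at most 10.3 elsewhere. Myh6, the main ventricular myosin of the mouse, was 10415 in replicate 2 and 14608 to 20856 elsewhere. No 2 libraries of one group resembled each other more than wild-type replicates 1 and 3 (Spearman's rho 0.9971 across genes, which are not independent replicates). They still differed beyond sampling noise (chi-square per degree of freedom 5.89, against 26.7 in the next closest pair). Over the 35 genes the value was 1.42. This cannot decide whether they come from 1 specimen, because 2 preparations of 1 specimen may also differ beyond sampling noise. They were kept as 2 libraries.

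These differences between wild-type libraries ran through the 35 genes. Replicate 2 held the lowest value of all 16 libraries for 25 of the 35 genes, where it was lowest for 23.4% of all genes tested. Replicate 4 was lowest for 4 of them (10.1% of all genes tested). The mean log2 deviation of the 35 genes from their own means was -0.53 in replicate 2, -0.21 in replicate 4 and 0.08 in both replicates 1 and 3, and it lay between -0.08 and 0.14 in the other 12 libraries. The main values are therefore also given with wild type reduced to replicates 1 and 3, or with the mean log2 level of the atrial markers as a covariate where that ends a call or turns a direction. If replicates 1 and 3 come from 1 specimen, wild type in the reduced fit rests on that specimen alone. The adjusted p-values of that fit would then miss the variation between wild-type mice.

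**Figure D1:**
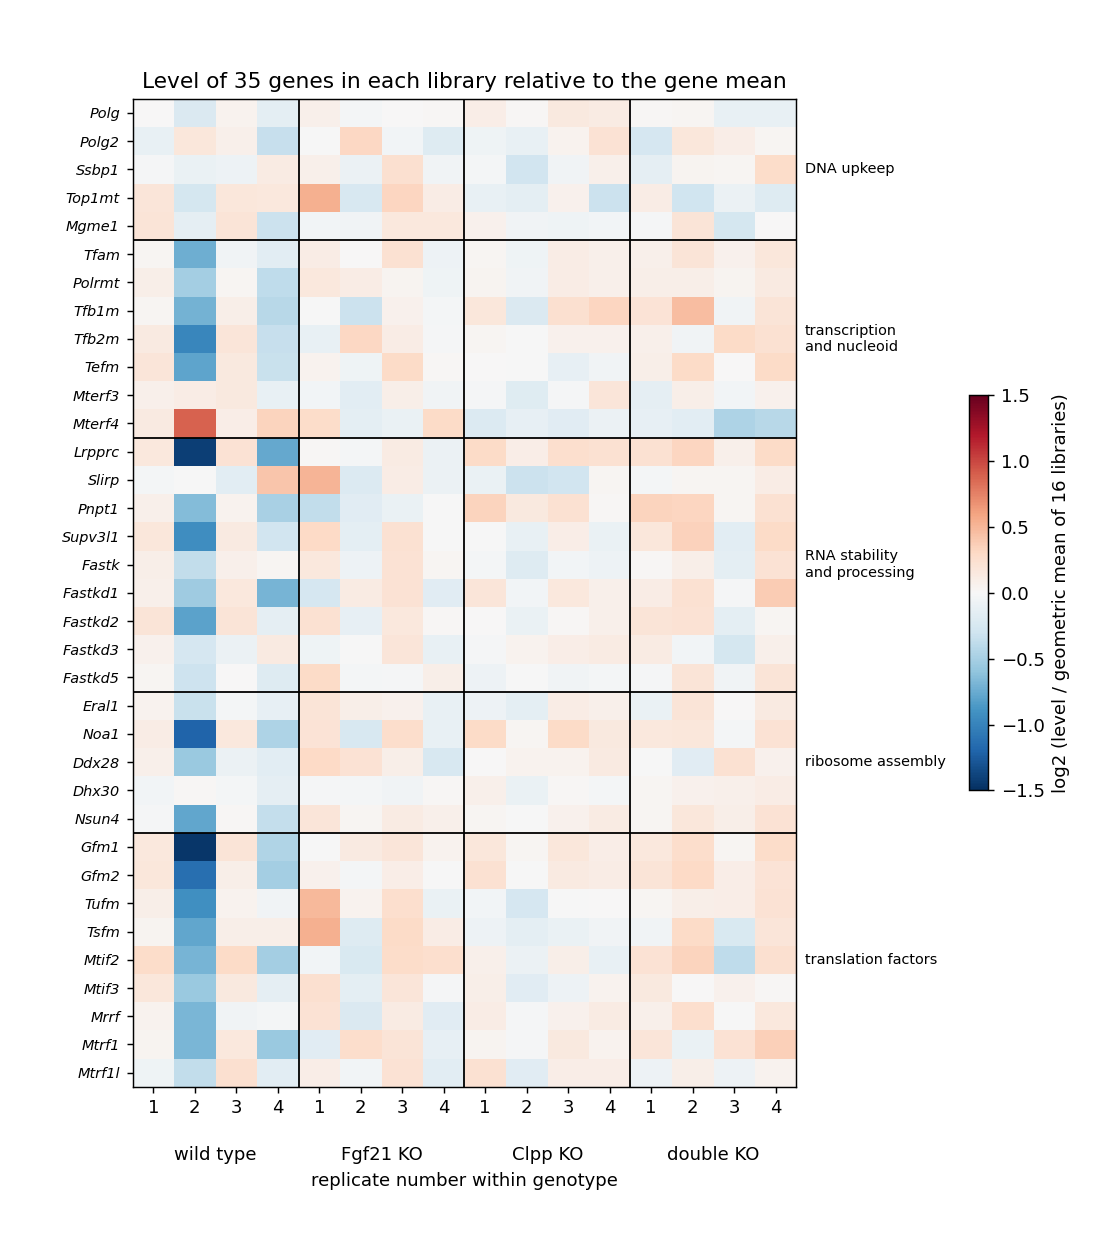
Level of each of the 35 genes (rows, ordered by role) in each of the 16 libraries (columns), as log2 of CPM scaled by TMM over the geometric mean of the gene. Wild-type replicate 2 is the bluest column, with the lowest value of all libraries for 25 of 35 genes, while Mterf4 is red in that column.

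Within a heart library the genes spanned a wide range of levels. Per kilobase of exon, averaged over the 16 libraries, the highest was Tufm, the elongation factor that brings aminoacyl-tRNA to the ribosome, at 69.1 CPM scaled by TMM per kb. Fastk, a regulator of the Nd6 mRNA, stood at 32.5, Gfm1, the translocating elongation factor, at 22.2, Lrpprc at 12.9 and Tfb2m at 12.6. The lowest were Polg2 at 0.602 and Fastkd3, which binds mitochondrial mRNAs, at 0.932, and the median of the 35 was 3.74. The length used was that of all annotated exons of a gene merged, so this order depends on the annotation. Before division by length, Polg2 was lowest at 2.62 CPM, and Top1mt (3.75) and Tfb1m (4.06) lay below Fastkd3 (4.86). Counts of some genes cannot be separated with certainty from those of another. Of the 31-base words of Slirp, 94.1% occur elsewhere in the annotation, mainly in Snw1 on the other strand, and 64.9% of those of Fastkd5 occur in Ubox5. For Tufm 58.2% occur in the pseudogene Gm9755, which had at most 0.784 CPM, and for Tfb2m 35.2% occur in Gm1818, which had 0 counts. For Mtif3 the share was 26.7% (mainly Gtf3a) and for Fastk 23.3% (mainly Slc4a2).

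What happened to these factors when CLPP was lost was asked in Clpp KO against wild type, in the double knockout against Fgf21 KO, which shares no library with the first comparison, and in the mean of both, 8 libraries without Clpp against 8 with it. The mRNAs encoded by mtDNA rose on Clpp loss, and most nuclear factors for them stayed within a narrow interval. The 13 mtDNA mRNAs took 25.5 to 39.4% of the counts in wild type and 29.2 to 38.8% in Fgf21 KO, whereas the share was 56.6 to 60.0% in Clpp KO and 56.1 to 60.8% in the double knockout. In the pooled comparison 12 of the 13 were called higher with a median log2 fold change of 1.53 (edgeR, adjusted p under 0.05). Of the 35 nuclear genes, Pnpt1 was called higher and Mterf4 lower. That is 2 of 35 where 5.11% of all genes tested were called (2.83% higher and 2.27% lower). DESeq2 called the same 2 genes (10.2% of all genes), and limma voom with quality weights called them and Top1mt (21.3%). The median log2 fold change of the 35 was 0.07 against -0.02 for all genes tested, and 27 of 35 lay above 0 where 46.7% of all genes did. The 95% interval lay within 1.5-fold either way for 29 genes and within 2-fold for all 35. The 6 genes whose interval reached past 1.5-fold were Pnpt1, Mterf4, Lrpprc, Tfb1m, Noa1 and Gfm1.

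Each of the 2 separate comparisons called none of the 35 with edgeR. In Clpp KO against wild type 0 were called (1.63% of all genes were), 4 had an unadjusted p under 0.05 (21.3% of all genes), DESeq2 called 1 (5.52% of all genes) and limma voom with quality weights 2 (18.2%). In the double knockout against Fgf21 KO 0 were called (0.892% of all genes), 2 had an unadjusted p under 0.05 (7.09% of all genes), DESeq2 called 0 (1.37%) and limma voom 1 (2.42%). The median of the 35 was 0.10 in the first, with 28 above 0 (45.8% of all genes), and 0.02 in the second, with 20 above 0 (48.8% of all genes). With the atrial covariate the second median was -0.11 with 5 above 0, and scaled by library size without the mtDNA mRNAs it was -0.05 with 12 above 0, where the median of all genes was -0.07. With wild type reduced to replicates 1 and 3 the first median was -0.03 with 12 above 0, the pooled median was -0.01 with 15 above 0, and 0 of the 35 were called in either (1.02% and 4.01% of all genes were).

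**Figure D2:**
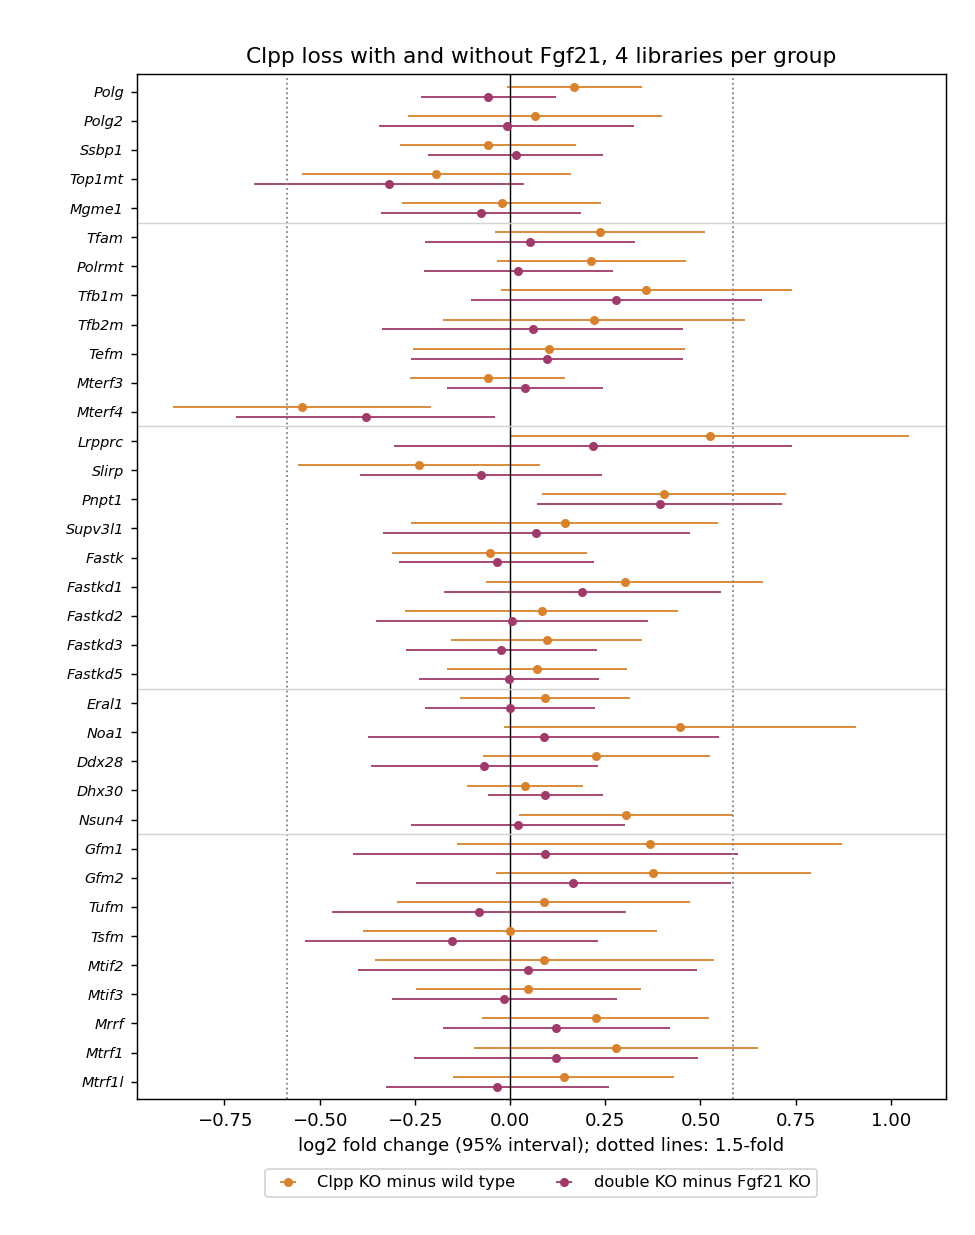
Log2 fold change of each gene on loss of Clpp with its 95% interval, in Clpp KO minus wild type and in double knockout minus Fgf21 KO (4 libraries per group); dotted lines mark 1.5-fold. Pnpt1 lies to the right and Mterf4 to the left of 0 in both, and the intervals of 24 and 29 of the 35 genes lie within the dotted lines.

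Among the factors for mtDNA upkeep, none of 5 was called in the pooled comparison and their median log2 fold change was -0.02. Top1mt encodes the mitochondrial topoisomerase that relaxes supercoiled mtDNA. It was 4.20, 3.08, 4.15 and 4.14 CPM scaled by TMM in wild-type replicates 1 to 4, whereas Fgf21 KO had 5.37, 3.14, 4.61 and 4.00. It was 3.43, 3.34, 3.86 and 2.95 in Clpp KO and 4.00, 3.00, 3.48 and 3.24 in the double knockout. The groups overlapped, and the pooled log2 fold change was -0.26 ± 0.12 (SE; edgeR adjusted p = 0.188). limma voom with quality weights called it, at -0.30 with adjusted p = 0.0224. Polg, the catalytic subunit of the mtDNA polymerase, was 42.0, 36, 43.2 and 37.8 in wild type, 44.1, 41.0, 41.9 and 42.1 in Fgf21 KO, 44.9, 42.2, 46.1 and 45.6 in Clpp KO and 42.4, 42.6, 38.8 and 38.8 in the double knockout. These values stood close together in every group, with a pooled log2 fold change of 0.06 ± 0.06 (adjusted p = 0.561). Polg2, Ssbp1, which coats single-stranded mtDNA, and Mgme1, an exonuclease that trims replication ends, had pooled values of 0.03, -0.02 and -0.05. In Clpp KO against wild type, limma voom with quality weights called Mgme1 lower, at -0.21 (adjusted p = 0.0438), where it called 18.2% of all genes. DESeq2 gave -0.01 (adjusted p = 0.968).

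Of the 7 genes for transcription and the nucleoid, Mterf4 was called lower in the pooled comparison, and 5 of the other 6 lay above 0 without being called. MTERF4 recruits the rRNA methyltransferase NSUN4 to the large ribosomal subunit. Mterf4 was 15, 25.1, 14.6 and 17.2 CPM scaled by TMM in wild type. The Fgf21 KO libraries were at 16.5, 12.3, 12.7 and 16.6. It was 11.8, 12.5, 12.1 and 12.8 in Clpp KO and 12.5, 12.2, 9.87 and 10.2 in the double knockout. All 4 wild-type libraries lay above all 8 libraries without Clpp, replicate 2 highest, and Mterf4 was the 1 gene of 35 without overlap between Clpp KO and wild type (13.7% of all genes tested); Fgf21 KO overlapped with all groups, and 0 of 35 genes separated the 8 libraries without Clpp from the 8 with it (1.49% of all genes). The pooled log2 fold change was -0.46 ± 0.11 (adjusted p = 0.0285), with means of 18 ± 4.88 (wild type), 14.5 ± 2.34 (Fgf21 KO), 12.3 ± 0.44 (Clpp KO) and 11.2 ± 1.33 (double knockout; SD, n = 4 each). The separate values were -0.55 in Clpp KO against wild type (adjusted p = 0.0909) and -0.38 in the double knockout against Fgf21 KO (adjusted p = 0.638). In Clpp KO against wild type, DESeq2 called Mterf4 at -0.54 (adjusted p = 0.0408) and limma voom with quality weights at -0.30 (adjusted p = 0.0146). Neither called it in the double knockout against Fgf21 KO. With wild type reduced to replicates 1 and 3 the pooled value was -0.33 (adjusted p = 0.0512). Leaving out single libraries, the pooled call was lost without Fgf21 KO replicate 1 or 4, Clpp KO replicate 1, 2 or 3, or double-knockout replicate 3 or 4 (adjusted p of at most 0.0669). Mterf4 spans chr1:93299211-93305915 on the minus strand (GRCm38), and 34.8% of its 31-base words are shared, mainly with Sned1 on the other strand. Sned1 was 14.1 in wild-type replicate 2 and 5.04 to 6.74 in the other wild-type libraries, and had a pooled value of -0.32 ± 0.25 (adjusted p = 0.427).

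Tfam encodes the protein that packs mtDNA and bends its promoters. Tfam was 22.9, 13.5, 21.5 and 20.1 CPM scaled by TMM in wild type, 24.1, 22.5, 26.3 and 21.2 in Fgf21 KO, 22.9, 21.4, 24.1 and 23.5 in Clpp KO and 23.5, 25.6, 23.4 and 25.1 in the double knockout. Wild-type replicate 2 was the single low library, and every double-knockout library lay above every wild-type one. The pooled log2 fold change was 0.14 ± 0.09 (adjusted p = 0.331), and 0.04 with wild type reduced to replicates 1 and 3. Polrmt, the RNA polymerase, had a pooled value of 0.12, Tfb2m, which melts the promoter, 0.14 and Tefm, the elongation factor, 0.10. Tfb1m, which methylates the rRNA of the small subunit, had the highest value of these 7 at 0.32 ± 0.13 (adjusted p = 0.137), and Mterf3, a repressor of mtDNA transcription, was at -0.01.

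Among the 9 genes for RNA stability and processing, Pnpt1 was called higher in the pooled comparison and the other 8 were not called. PNPT1 is the polynucleotide phosphorylase of the mitochondrial degradosome, and its gene is known to be induced by interferon. Pnpt1 was 14.2, 8.56, 14 and 9.59 CPM scaled by TMM in wild type, 10.4, 12, 12.6 and 13.4 in Fgf21 KO, 17, 14.9, 15.8 and 13.6 in Clpp KO and 17, 16.9, 13.8 and 15.8 in the double knockout. The double knockout lay wholly above Fgf21 KO, one of 2 genes of the 35 without overlap in that comparison (5.8% of all genes tested), while Clpp KO and wild type overlapped. The pooled log2 fold change was 0.40 ± 0.11 (adjusted p = 0.0423), with 0.40 in Clpp KO against wild type (adjusted p = 0.156) and 0.39 in the double knockout against Fgf21 KO (adjusted p = 0.561). In the latter, limma voom with quality weights called Pnpt1, at 0.42 (adjusted p = 0.032), and DESeq2 did not (adjusted p = 0.471). Neither called it in Clpp KO against wild type. Of its 31-base words 0.224% were shared, and the gene spans chr11:29130744-29161828 on the plus strand. With wild type reduced to replicates 1 and 3 the value was 0.25 (adjusted p = 0.0829), with the atrial covariate 0.37 (adjusted p = 0.0543), and of 16 fits that each left out 1 library, 3 called the gene, those without wild-type replicate 1 or 3 or double-knockout replicate 3. Supv3l1, its helicase partner, had a pooled value of 0.11 (adjusted p = 0.634).

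Lrpprc encodes the protein that keeps mitochondrial mRNAs stable and polyadenylated. Lrpprc was 118, 40.0, 123 and 62.5 CPM scaled by TMM in wild type, 107, 104, 116 and 100 in Fgf21 KO, 130, 114, 126 and 124 in Clpp KO and 124, 133, 112 and 129 in the double knockout. Wild-type replicates 2 and 4 were far below every other library, and replicates 1 and 3 were within the range of the libraries without Clpp. The pooled log2 fold change was 0.37 ± 0.17 (adjusted p = 0.196). With wild type reduced to replicates 1 and 3 it was 0.12 (adjusted p = 0.301), and in Clpp KO against wild type it went from 0.52 to 0.04. In that comparison the fit with the atrial covariate called Lrpprc and Nsun4 higher and Mterf4 lower, where 1089 of 15255 genes tested were called. Slirp, the partner of LRPPRC, had a pooled value of -0.16 (adjusted p = 0.356). Of the FASTK family, whose members bind and process mitochondrial RNA, Fastkd1 had the highest value at 0.25 (adjusted p = 0.214), and Fastk, Fastkd2, Fastkd3 and Fastkd5 lay between -0.04 and 0.04.

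**Figure D3:**
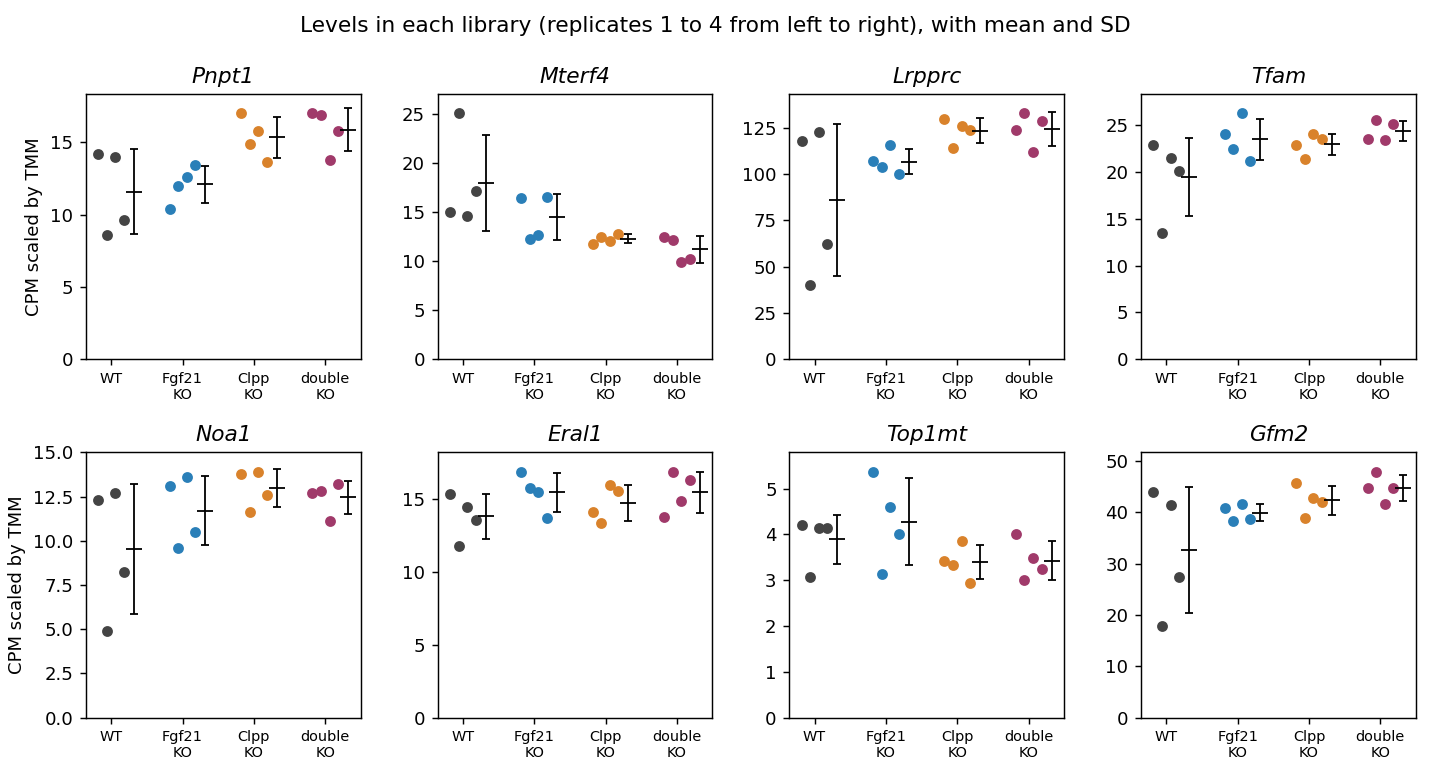
CPM scaled by TMM of 8 of the genes in each library, with the mean and SD (n = 4) of each group as a bar to the right of its points. The group means of Pnpt1 are higher and those of Mterf4 lower without Clpp. Lrpprc, Noa1 and Gfm2 are lowest in wild-type replicates 2 and 4.

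None of the 5 ribosome assembly genes was called, although all 5 lay above 0 in the pooled comparison (median 0.08). Eral1 was 15.4, 11.8, 14.5 and 13.6 CPM scaled by TMM in wild type, 16.9, 15.8, 15.5 and 13.7 in Fgf21 KO, 14.1, 13.4, 16 and 15.6 in Clpp KO and 13.8, 16.9, 14.9 and 16.3 in the double knockout. All groups overlapped, and the pooled log2 fold change was 0.05 ± 0.07 with a 95% interval of -0.11 to 0.20 (adjusted p = 0.717). Noa1 was 12.3, 4.92, 12.7 and 8.24 in wild type, 13.1, 9.59, 13.6 and 10.5 in Fgf21 KO, 13.8, 11.6, 13.9 and 12.6 in Clpp KO and 12.7, 12.8, 11.1 and 13.2 in the double knockout. As with Lrpprc, wild-type replicates 2 and 4 were the lowest libraries. The pooled value of Noa1 was 0.27 ± 0.15 (adjusted p = 0.282), and 0.06 with wild type reduced to replicates 1 and 3. These are RNA levels and say nothing of the amounts of the 2 proteins.

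Nsun4, which methylates mitochondrial rRNA and pairs with MTERF4, was 21.3, 12.6, 21.9 and 16.9 CPM scaled by TMM in wild type, 24.5, 22.1, 23.6 and 22.8 in Fgf21 KO, 22.0, 21.5, 22.6 and 23.6 in Clpp KO and 22.1, 24.3, 22.9 and 25.1 in the double knockout. The wild-type libraries were the lowest, except that replicate 3 lay within the range of Clpp KO, and the pooled log2 fold change was 0.16 ± 0.09 (adjusted p = 0.28). The RNA helicases Ddx28 and Dhx30, which act in ribosome assembly at mitochondrial RNA granules, had pooled values of 0.08 and 0.07. Dhx30 had the other set of levels in the double knockout that did not overlap with Fgf21 KO, at 27.7 to 29.2 against 26 to 27.4, a log2 difference of 0.09 ± 0.07 (adjusted p = 0.846).

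The 9 translation factors were not called, with a pooled median of 0.07. Gfm2, which splits the ribosome after termination together with MRRF, was 43.9, 17.8, 41.4 and 27.4 CPM scaled by TMM in wild type, 40.9, 38.3, 41.7 and 38.7 in Fgf21 KO, 45.8, 38.9, 42.8 and 42.0 in Clpp KO and 44.7, 47.9, 41.7 and 44.8 in the double knockout. Again wild-type replicates 2 and 4 were the low libraries, and the pooled log2 fold change of 0.27 ± 0.14 (adjusted p = 0.227) was 0.07 with wild type reduced to replicates 1 and 3. Mrrf, the recycling factor, was 24.6, 14.8, 22.9 and 23.2 in wild type, 27.6, 20.5, 25.8 and 21.1 in Fgf21 KO, 25.7, 23.4, 24.9 and 25.8 in Clpp KO and 25.0, 28.2, 23.6 and 26.5 in the double knockout, a pooled value of 0.17 ± 0.10 (adjusted p = 0.28). The groups overlapped for both genes. Gfm1 had a pooled value of 0.23 and the release factors Mtrf1 and Mtrf1l 0.20 and 0.05. Initiation factors Mtif2 and Mtif3 stood at 0.07 and 0.02. Tufm was at 0.00 and Tsfm, which recharges TUFM, at -0.08.

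The effect of Fgf21 loss with Clpp intact was taken from Fgf21 KO minus wild type. None of the 35 genes was called with edgeR, DESeq2 or limma voom (0.0459%, 0.223% and 0.662% of all genes tested were), and 1, Nsun4, had an unadjusted p under 0.05 (9.17% of all genes). Nsun4 was also the 1 gene whose levels did not overlap (2.72% of all genes), at 0.36 ± 0.13 (adjusted p = 0.538). The median log2 fold change was 0.16 and 33 of the 35 lay above 0 (48.2% of all genes). With wild type reduced to replicates 1 and 3 the median was -0.01 with 17 above 0, and Nsun4 was at 0.12.

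Fgf21 loss in hearts without Clpp, in the double knockout against Clpp KO, gave values close to 0. Again 0 of 35 were called by edgeR, DESeq2 and limma voom (0.059%, 0.23% and 0.262% of all genes), and 0 had an unadjusted p under 0.05 (3.55% of all genes). The 95% interval lay within 1.5-fold for 34 of 35, with values from -0.14 for Mterf4 to 0.22 for Tefm and a median of 0.07, and 28 of 35 lay above 0 (51.8% of all genes). The direction turned with the atrial covariate, to 6 above 0 and a median of -0.08. Scaled by library size without the mtDNA mRNAs, 8 lay above 0 with a median of -0.05. The median of all genes was then -0.12, against 0.01 with TMM. The median of the 35 thus lay above that of all genes under both scalings. Tefm and Tufm were the 2 genes without overlap (5.78% of all genes). The difference between the 2 effects of Fgf21 loss, tested as an interaction, was called for 0 of 35 and for 0% of all genes by edgeR, and 0 of 35 had an unadjusted p under 0.05 (1.96% of all genes). DESeq2 and limma voom also called 0 of the 35 (0.0197% and 0.00656% of all genes). The interaction lay above 0 for 6 of the 35 (53.1% of all genes) with a median of -0.10, and for 23 with a median of 0.03 when wild type was reduced to replicates 1 and 3. For Pnpt1 the interaction was -0.01 ± 0.21 and for Mterf4 0.17 ± 0.23. The interval lay within 1.5-fold for 17 of the 35, so an unequal effect of that size was not resolved for the other 18.

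The double knockout against wild type shares libraries with the comparisons above. Mterf4 was the 1 gene called of 35 (1.53% of all genes tested), at -0.69 ± 0.16 (adjusted p = 0.0431), and -0.41 with wild type reduced to replicates 1 and 3 (adjusted p = 0.248; 0.952% of all genes were called then). Without wild-type replicate 2 alone the value was -0.48, and with the atrial covariate it was -0.55 (adjusted p = 0.137). DESeq2 called Mterf4 at -0.68 (adjusted p = 0.00501) and limma voom with quality weights at -0.36 (adjusted p = 0.0306). Sned1, with which Mterf4 shares 34.4% of its 31-base words, was at -0.73 ± 0.36 in this comparison (adjusted p = 0.232). Both genes had their 2 lowest double-knockout levels in replicates 3 and 4, at 3.10 and 3.46 for Sned1, and their counts cannot be separated with certainty. Of 16 fits that each left out 1 library, 3 called it, those without wild-type replicate 1 or 3 or Fgf21 KO replicate 2. Levels of 4 genes did not overlap (9.85% of all genes): Mterf4 was lower, and Tfam at 0.32, Nsun4 at 0.38 and Dhx30 at 0.12 were higher without being called. The median was 0.20 with 30 of 35 above 0 (48.7% of all genes), and 0.02 with 20 above 0 when wild type was reduced to replicates 1 and 3.

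**Figure D4:**
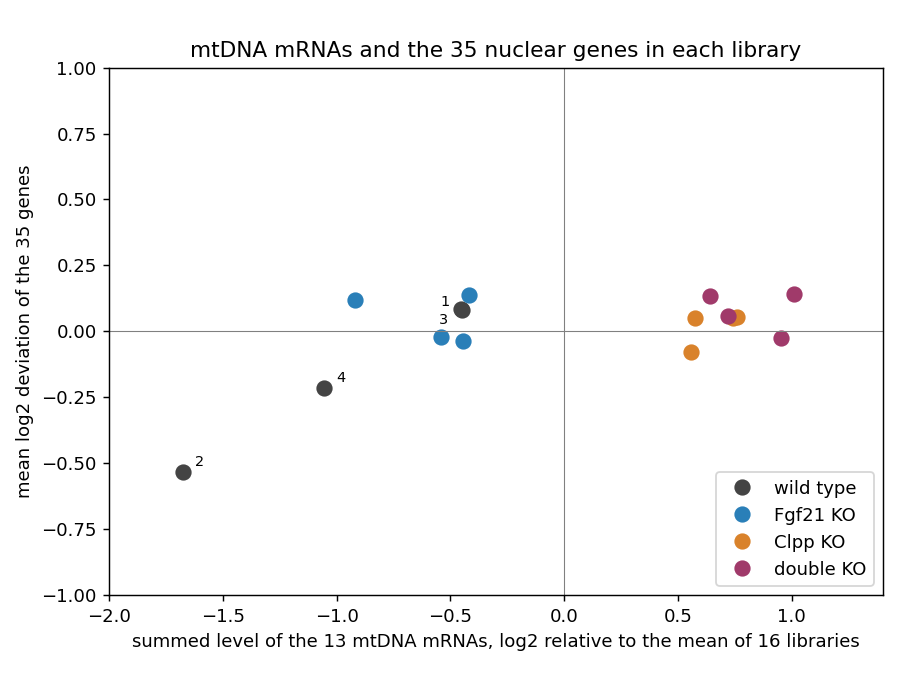
Summed level of the 13 mtDNA mRNAs (log2 relative to the mean over 16 libraries, x axis) against the mean log2 deviation of the 35 nuclear genes (y axis), 1 point per library, with replicate numbers shown for wild type. The 8 libraries without Clpp lie to the right at deviations of -0.08 to 0.14, and wild-type replicates 2 and 4 lie at -0.53 and -0.21.

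Per library, the summed mtDNA mRNAs and the mean of the 35 nuclear genes were set side by side. The summed level was 139801 to 327245 CPM scaled by TMM in wild type, 236604 to 334428 in Fgf21 KO, 658696 to 755851 in Clpp KO and 697003 to 901271 in the double knockout. The libraries without Clpp were thus wholly above those with it for the mtDNA mRNAs. For the nuclear genes the mean deviations of the 8 libraries without Clpp fell within the range of the Fgf21 KO libraries and wild-type replicates 1 and 3, except for Clpp KO replicate 2 at -0.08 and double-knockout replicate 4 at 0.14. Without TMM, that is with total counts as the only scaling, the pooled median over all genes tested was -0.75. All 35 were then called lower (87.3% of all genes were called) with a median of -0.65, Pnpt1 at -0.30 and Mterf4 at -1.22 among them. Relative to the median of all genes Pnpt1 was higher and Mterf4 lower, as with TMM.

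Beyond the 35, 61 other genes of the same pathways were tested in the pooled comparison. Of 13 for DNA upkeep and nucleotide supply 0 were called, of 26 for transcription, RNA processing and modification 1 was called higher, and of 22 for ribosome assembly and translation 0 were called. That is 1 of 61, where 5.11% of all genes tested were called and 2.83% were called higher. The median over the 61 was 0.06. The gene called was Nsun3, which methylates the mitochondrial methionine tRNA, at 3.91 CPM without Clpp and 2.71 with it, a log2 rise of 0.53 ± 0.13 (adjusted p = 0.0318). With wild type reduced to replicates 1 and 3 it was 0.36 (adjusted p = 0.0564). Leaving out single libraries kept the call without wild-type replicate 1, 3 or 4, Fgf21 KO replicate 2, Clpp KO replicate 2 or 4, or double-knockout replicate 3, and lost it without any of the other 9. The smallest p-values among those not called belonged to Rrm2b, a ribonucleotide reductase subunit that supplies nucleotides for mtDNA, at 0.49 ± 0.15 (adjusted p = 0.0687), and to Mettl15, an rRNA methyltransferase, at 0.55 ± 0.18 (adjusted p = 0.0845). Lig3, the mtDNA ligase, was at 0.31 (adjusted p = 0.105) and Rbfa, a ribosome assembly factor, at -0.23 (adjusted p = 0.131).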

How the data were processed

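Deposited values are whole-number counts per gene, 1 column per library. Per the submitters' processing notes, fastp 0.21.0, kallisto 0.46.1, R 4.0.3, edgeR 3.32.1, DESeq2 1.30.1 and GRCm38.p6 were used. The step by which the authors obtained whole-number counts is not given in the sources used. Per the labels' protocols, libraries were made with a stranded mRNA kit from total RNA.

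All 16 libraries in 4 groups were fitted in 1 model with edgeR 4.0.16 in R 4.3.3 (filterByExpr, minimum count 10; TMM; robust quasi-likelihood; 12 residual degrees of freedom; common biological coefficient of variation 0.249). Benjamini-Hochberg adjustment ran over the 15255 genes tested, with a threshold of 0.05. This was checked on simulated counts. DESeq2 1.42.0, limma 3.58.1 (voom with quality weights), other scalings, leaving out each library, wild type reduced to replicates 1 and 3, a replicate block and an atrial covariate were alternatives. Gene models for gene spans, exon lengths and shared words of 31 bases were GENCODE M21, and promoter windows were taken from RefSeq starts. Total counts per library were 36260545 to 51820727, and members had 82 to 11348 counts.

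The 35 members and the pathway lists were chosen with earlier results of these data known. Named with every library's value were members called in any comparison, otherwise 2 per role with the smallest pooled p, and always Eral1, Noa1, Tfam and Lrpprc.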

Additional observations from a re-analysis of the deposited data

Results flagged for a closer look

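In 4 of 140 groups of 4 libraries (35 genes in 4 genotypes), 1 library stood far from the others by Dixon's criterion; chance alone gives about 1 in 20, or 7 of 140. In 3 of these the library was wild-type replicate 2: Top1mt at 3.08 CPM scaled by TMM against 4.14 to 4.20 in the other wild-type libraries, Fastk at 110 against 145 to 151, and Tsfm at 10.8 against 19 to 19.7. The other was Mgme1 in Clpp KO replicate 1, at 11.8 against 10.8 to 11.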

How the results depend on the processing

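The count of the 35 genes called was 0 in every alternative run for Fgf21 KO against wild type, for the double knockout against Clpp KO and for the interaction. In Clpp KO against wild type it was 0, and 1 with DESeq2 (5.52% of all genes) and 2 with limma voom (18.2%). By library size alone it was 29, where 11933 of 15255 genes tested were called. With wild-type replicates 1 and 3 summed it was 1 (562 of 15521 genes tested). With the atrial covariate it was 3, Mterf4, Lrpprc and Nsun4 (1089 of 15255 genes tested). Leaving out single libraries it was 0, and 1 (Mterf4) without wild-type replicate 3. The genes called among all tested then ran from 114 of 15578 (without Clpp KO replicate 1) to 949 of 15528 (without wild-type replicate 3). In the double knockout against Fgf21 KO it was 0, and 1 with limma voom (2.42% of all genes). By library size alone it was 34, where 10858 of 15255 genes tested were called, and it was 0 to 0 leaving out single libraries. In the pooled comparison it was 2 (5.11% of all genes), and 35 by library size alone (87.3%). It was 1 by library size without the mtDNA mRNAs, without the filter on low counts, with the replicate block or with the atrial covariate. With wild type reduced to replicates 1 and 3 it was 0 (4.01% of all genes), and it was 0 to 2 leaving out single libraries. In the double knockout against wild type it was 1 (1.53% of all genes). It was 33 by library size alone and 2 with wild-type replicates 1 and 3 summed. It was 0 with wild type reduced (0.952% of all genes), with the replicate block, with the atrial covariate or with only the groups compared. Leaving out single libraries it was 0 to 3. Some counts for the pooled comparison and for the double knockout against wild type stand without a share of all genes. They cannot be read against that share, which also moved between fits. By library size alone 2 values changed sign, Pnpt1 to -0.30 (adjusted p = 0.0139) and Nsun3 to -0.18 (adjusted p = 0.213); this scaling moved the median of all genes to -0.75. Leaving out single libraries, the pooled value ranged from -0.50 to -0.36 for Mterf4 (called in 9 of 16), from 0.33 to 0.46 for Pnpt1 (3 of 16) and from 0.46 to 0.61 for Nsun3 (7 of 16), and Mterf4 in the double knockout against wild type from -0.77 to -0.48 (3 of 16). The cause of these changes was not tested. Replicate numbers are shared across groups, and the labels state no blocking. Deviations of same-numbered libraries correlated at -0.23 to 0.36 (24 pairs, 4 over 0.1, best with the own number in 2 of 24). These deviations also hold differences within groups, such as in the atrial markers, so they cannot decide whether same-numbered libraries share a batch. With the replicate number as a block Pnpt1 was 0.40 (adjusted p = 0.0686). Mterf4 in the double knockout against wild type was then -0.68 (adjusted p = 0.0695). Members had 82 to 11348 counts per library. For genes whose interval passes 1.5-fold, a change of that size lies within the interval.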
